A study of Mus musculus with 16 samples.

Results

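MHC class I presentation in skeletal muscle was followed through 10 genes: the heavy chains *H2-K1*, *H2-D1*, *H2-Q4*, *H2-T23* and *H2-M3*, the shared light chain *B2m*, the peptide transporter subunits *Tap1* and *Tap2*, the loading factor *Tapbp* and the transcriptional regulator *Nlrc5*. They were chosen by gene symbol. All 10 were found among the 26382 genes of the bulk RNA-sequencing table, and 10 of 10 passed a filter on low values that left 16414 genes for testing. The tissue was hamstring muscle of female C57BL/6 mice aged 8 to 10 weeks, collected 14 days after an injection, in 16 libraries from 9 mice. In mice m862 to m866, the left leg was titled as injected with "ma", and its treatment label was histidyl-tRNA synthetase (HRS, 3 to 5 mg/mL). This recombinant murine protein is the antigen that induces myositis in this model (HRS legs, n = 5). The right leg of the same mice was titled as injected with PBS (contralateral PBS legs, n = 5). Both legs of mice m867 and m868 were given PBS (PBS-only, 4 legs of 2 mice, which are not 4 independent animals). Mice m860 and m861 carried the HRS treatment label, but a title naming an MBP fusion protein at 2 to 3 mg/mL (HRS-MBP, n = 2, leg not stated). The general protocol describes 100 μL of HRS given bilaterally, 50 μL per side, whereas the titles, followed here, name a treatment for each leg. The mice shared 1 strain, and no genotype other than C57BL/6 was given.

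A class I molecule is a heavy chain bound to β2-microglobulin and a short peptide, displayed at the cell surface to the receptors of CD8+ T cells and to inhibitory receptors of NK and myeloid cells. Peptides are cut by the proteasome, pumped into the endoplasmic reticulum by the TAP1-TAP2 heterodimer and fitted into the heavy chain with the help of tapasin, the product of *Tapbp*. NLRC5 acts on the promoters of class I genes, and interferon-γ raises the transcription of the whole route. Resting muscle fibers display little class I at their surface, and its appearance on fibers is a known histological feature of human myositis.

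In GRCm38 coordinates, 8 of the 10 genes lay on chromosome 17 within 3.36 megabases of the MHC, from chr17:33915899 to 37274484. These were *Tapbp* (chr17:33915899-33929292), *H2-K1* (chr17:33996017-34000347), *Tap1* (chr17:34187553-34197225), *Tap2* (chr17:34203527-34216321), *H2-D1* (chr17:35262730-35267499), *H2-Q4* (chr17:35379617-35385290), *H2-T23* (chr17:36029773-36032855) and *H2-M3* (chr17:37270220-37274484). *B2m* lay on chromosome 2 (chr2:122147686-122153083) and *Nlrc5* on chromosome 8 (chr8:94434356-94527272). All are annotated as protein coding, and each has 1 deposited value per library.

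Promoter sequences of 8 of these genes were matched by symbol in RefSeq (GRCm38.p6, 250 bases before to 50 after the annotated start). No entry was matched for *Tap2* and *Nlrc5*. In 5 of the 8, the letters TGAC were followed 21 bases later by ATTGG, the reverse of CCAAT. These are the letters of the X2 and Y boxes of the module that NLRC5 uses at class I promoters. This arrangement stood in 0.281% of the 27025 genes with a promoter entry, searched on either strand. The search used TGAC and not the longer TGACG, which *H2-Q4* lacks at that distance. The distance searched is the one these genes share, so the percentage is a description and not a test. The arrangement is shown because the 5 genes that carry it code for 4 of the 5 heavy chains and for the light chain. *H2-T23*, the remaining heavy chain, held no such match in this window, nor did *Tap1* and *Tapbp*. The sites are given 5′ to 3′ on the strand of the gene, with both elements in capitals:
*H2-K1*: TGACgcgcagtcagctcttacccccATTGG
*H2-D1*: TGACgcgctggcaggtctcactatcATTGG
*H2-Q4*: TGACttactggcagttctcacccccATTGG
*H2-M3*: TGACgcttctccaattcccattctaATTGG
*B2m*: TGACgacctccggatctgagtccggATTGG

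These sites began 41 (*H2-K1*, chr17:34000359-34000388, minus strand), 101 (*H2-D1*, chr17:35262993-35263022), 104 (*H2-Q4*, chr17:35379513-35379542), 46 (*H2-M3*, chr17:37270188-37270217) and 78 (*B2m*, chr2:122147609-122147638) bases before the RefSeq start, counted for *H2-K1* from the nearer of its 2 starts. The *H2-D1* site lies inside an exon of a longer GENCODE transcript, and the other 4 lie outside annotated exons. Further upstream, the same genes carried interferon-type letters. On either strand, GAA and GAAAC with any 2 bases between them were matched in *H2-K1*, *H2-D1*, *H2-Q4* and *H2-M3* (2.01% of genes), and GAAA and GAAA with any 2 bases between them in *B2m* and *H2-T23* (3.99% of genes). A κB-type match, GGG and TTCCC with any 2 bases between them, stood in *H2-K1*, *H2-D1* and *H2-Q4* (2.01% of genes). The 30 bases that end with the interferon-type match are given for the same 5 genes, with that match and any κB-type match in capitals, all on the strand of the gene:
*H2-K1*: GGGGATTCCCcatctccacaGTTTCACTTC
*H2-D1*: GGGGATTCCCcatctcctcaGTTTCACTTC
*H2-Q4*: gGGGATTTCCCatctccccaGTTTCACTTC
*H2-M3*: attcccccatttcctctgagGTTTCACTTC
*B2m*: acgggactttataagaacatGAAACTGAAA

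In *H2-K1*, *H2-D1* and *H2-Q4*, this stretch began exactly 70 bases before the TGAC, and in *H2-M3* and *B2m* the distance was 76 and 81 bases. *H2-K1*, *H2-D1*, *H2-Q4* and *H2-M3* are related genes, so their shared letters are not independent. The core TGACG alone was found in 23% of genes, among them *Tap1*, where no ATTGG stood at that distance. CCAAT was found in 41.1% of genes and in all 8 promoters here. A GAS-type run, TTCNNNGAA, was matched in *H2-M3* of the 8 and in 9.55% of genes. *Tapbp* held no match to the interferon-type or κB-type runs within this window. The RefSeq starts of *Tap1* and of *Psmb9*, a proteasome subunit read from the opposite strand, lie 226 bases apart. A match is a description of letters, not evidence of binding.

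**Figure D1:**
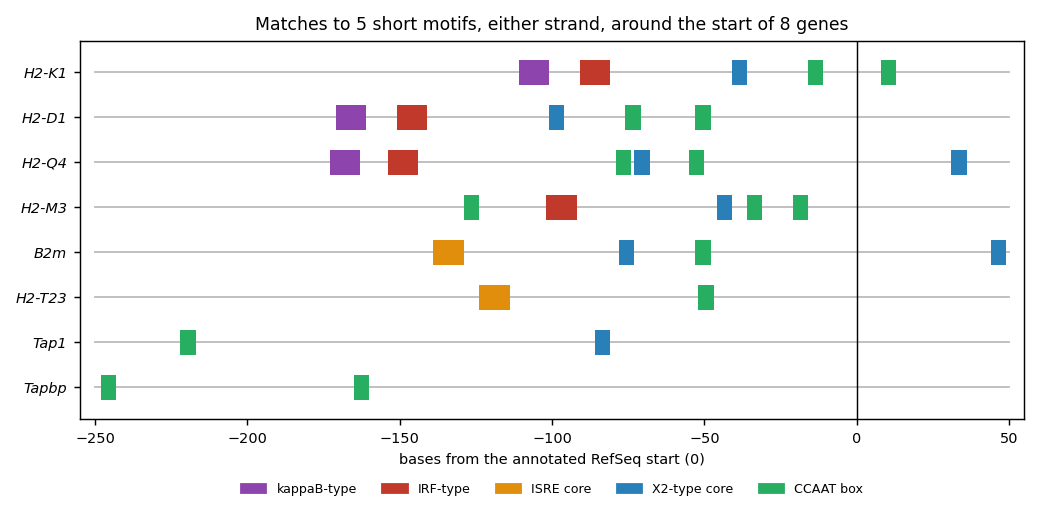
Matches to 5 short motifs on either strand in the promoters of 8 class I and peptide loading genes, plotted as bases from the annotated RefSeq start at 0. Each bar is 1 match, drawn to scale. The X2-type core and the CCAAT box stand in the same order and at the same spacing in *H2-K1*, *H2-D1*, *H2-M3* and *B2m*. In *H2-Q4* the X2-type letters at that spacing are TGACT, which is not drawn.

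The libraries differed in depth and composition. The implied depth was 37300000 to 73900000 reads in the HRS legs, 24700000 to 72800000 in the contralateral and 8600000 to 40700000 in the PBS-only legs, and 37300000 and 39600000 in the HRS-MBP libraries. A value of the 10 genes rested on the worth of 26 (*H2-M3*) to 149546 (*H2-K1*) reads. Because the deposited values included fractions of a read, reads could have been divided between similar genes. At a read length of 50 bases, 21.8% of the positions in *H2-Q4* transcripts, 13.6% in *H2-T23*, 12.8% in *H2-D1* and 9.63% in *H2-K1* also occurred in another gene. At 100 bases these shares were 2.16%, 3.15%, 3.59% and 0.957%, and they were 0 at both lengths for *B2m* and *Nlrc5*. These shares are of positions and not of reads. The error that shared positions leave in the values of these 4 heavy chains was not measured. All 6 skeletal muscle fiber markers examined were present in each library, with a summed level of 34600 to 163000 normalized counts. The HRS leg of m866 stood apart from the other 4 HRS legs, with a muscle fiber sum of 142000 against 34600 to 84400 and a leukocyte sum of 217 against 437 to 965, so results are also given without that mouse. The share of summed normalized counts from the mitochondrial chromosome moved with treatment, at 3.41% to 6.29% in the other 4 HRS legs and 5.94% and 6.98% with HRS-MBP, against 9.69% to 13.1% over the PBS libraries and 11.1% in the HRS leg of m866, and its part in the results was not tested. Separate mice are named by the labels, and p-values describe the spread between these libraries.

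All 10 genes were higher with HRS. In the HRS legs, *H2-K1*, a classical heavy chain that displays peptides to CD8+ T cells, was at 1299, 1079, 2671, 826 and 618 normalized counts in m862 to m866. The paired PBS legs held 155, 138, 217, 145 and 341. The PBS-only legs of m867 held 97.3 and 119 and those of m868 held 197 and 223, and the HRS-MBP libraries held 2351 and 2595. The groups with and without HRS did not overlap, with m864 the highest HRS leg and m866 the lowest. Each HRS library lay above each PBS library, an order found for 15.4% of tested genes and for each of the 10 genes followed here. The means were 1299 ± 809 (SD, n = 5) in HRS legs and 199 ± 85.4 (SD, n = 5) in contralateral PBS legs. *H2-K1* had a log2 fold change of 2.60 between HRS and contralateral PBS legs (95% confidence interval 1.84 to 3.37, adjusted p = 4.87e-05 from limma), on the scale of log2(normalized count + 0.5). This fit held no term for mouse, for *H2-K1* or for the genes below, although both legs come from the same mice. With mouse as a block, the adjusted p of *H2-K1* from limma was 0.00562. In whole muscle, more cells that express a gene and more RNA per cell cannot be told apart, here or in any comparison below.

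*H2-D1*, the other classical heavy chain in the list, was at 1363, 1449, 2590, 1044 and 691 in the HRS legs. Its contralateral levels were 193, 198, 266, 210 and 510 in the same order of mice. The PBS-only legs of m867 held 130 and 169, those of m868 held 238 and 283, and the HRS-MBP libraries held 2278 and 2666. The lowest HRS leg and the highest PBS leg both came from m866, and the gap between them was the narrowest among the 10 genes, at a ratio of 1.36. The log2 fold change was 2.34 (95% confidence interval 1.63 to 3.06, adjusted p = 6.79e-05 from limma).

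The non-classical heavy chains were also higher in the HRS legs than in the PBS legs. *H2-Q4* lay at 112 to 391 in the HRS legs against 25 to 47.1 in the contralateral PBS legs, and its log2 fold change was 2.29 ± 0.342 (SE; limma adjusted p = 9.17e-05). *H2-T23*, the gene of Qa-1, whose product is bound by the CD94/NKG2A receptor of NK cells, lay at 130 to 426 against 27.1 to 42.1, with 2.52 ± 0.319 (SE; limma adjusted p = 2.37e-05). *H2-M3*, which presents peptides that begin with N-formylmethionine, was the heavy chain with the lowest level, at 9.54 to 36.5 against 3.06 to 4.82, with 2.12 ± 0.27 (SE; limma adjusted p = 2.44e-05). For each of the 3 genes no HRS leg overlapped with a PBS leg. The PBS-only legs spanned 20.4 to 51.3 for *H2-Q4*, 16.7 to 44.9 for *H2-T23* and 1.65 to 3.26 for *H2-M3*, and the HRS-MBP libraries held 308 and 355, 335 and 360, and 26.5 and 28.7. *H2-Q4* thus reached a slightly higher level in the PBS-only legs of m868 (50 and 51.3) than in any contralateral PBS leg.

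*B2m*, whose product pairs with every one of these heavy chains, was at 785, 778, 1678, 662 and 503 in the HRS legs and at 118, 123, 174, 117 and 282 in the contralateral PBS legs. The means were 881 ± 460 and 163 ± 70.9 (SD, n = 5 each). The PBS-only legs spanned 95.2 (m867) to 215 (m868). The HRS-MBP libraries were at 1884 and 2194, above each of the 5 HRS legs, which was the case for *B2m* alone among the 10 genes. Its log2 fold change between HRS and contralateral PBS legs was 2.39 (95% confidence interval 1.72 to 3.07, adjusted p = 3.53e-05 from limma).

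The transporter subunits stood at opposite ends of the range of change, and the difference between them was not itself tested. *Tap1* was at 126, 98.8, 287, 80.5 and 130 in the HRS legs and at 13.9, 10.9, 21.6, 11.7 and 19.3 in the contralateral PBS legs. In the PBS-only legs *Tap1* spanned 5.86 to 28.9, and with HRS-MBP it was at 239 and 241. *Tap2* was at 103, 80.7, 199, 61.6 and 86.9 in the HRS legs and at 23.6, 20.8, 31.1, 22.9 and 40.6 in the contralateral PBS legs, spanned 14.8 to 38.1 in the PBS-only legs and was at 140 and 161 with HRS-MBP. *Tap1* thus had the largest log2 fold change of the 10 genes, 3.08 (95% confidence interval 2.2 to 3.97, adjusted p = 4.05e-05 from limma), and *Tap2* the smallest, 1.84 (95% confidence interval 1.18 to 2.5, adjusted p = 0.000259). *Tapbp*, whose product bridges the transporter and the empty heavy chain, lay at 189 to 468 in the HRS legs against 57.0 to 88.7 in the contralateral PBS legs, and its log2 fold change was 1.95 ± 0.206 (SE; limma adjusted p = 5e-06). It spanned 46.7 to 69.7 in the PBS-only legs and was at 370 and 377 with HRS-MBP, below the HRS leg of m864 (468). No HRS library overlapped with a PBS library for these 3 genes.

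*Nlrc5*, the regulator, was at 48.1, 33.3, 83.7, 26.9 and 37.5 in the HRS legs and at 5.26, 3.21, 8.59, 2.74 and 7.57 in the contralateral PBS legs. It had the next largest log2 fold change after *Tap1*, 2.96 (95% confidence interval 2.13 to 3.78, adjusted p = 3.26e-05 from limma). The means were 45.9 ± 22.5 and 5.47 ± 2.59 (SD, n = 5 each). In the HRS-MBP libraries it reached 77.8 and 74.5. No HRS library overlapped with a PBS library.

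**Figure D2:**
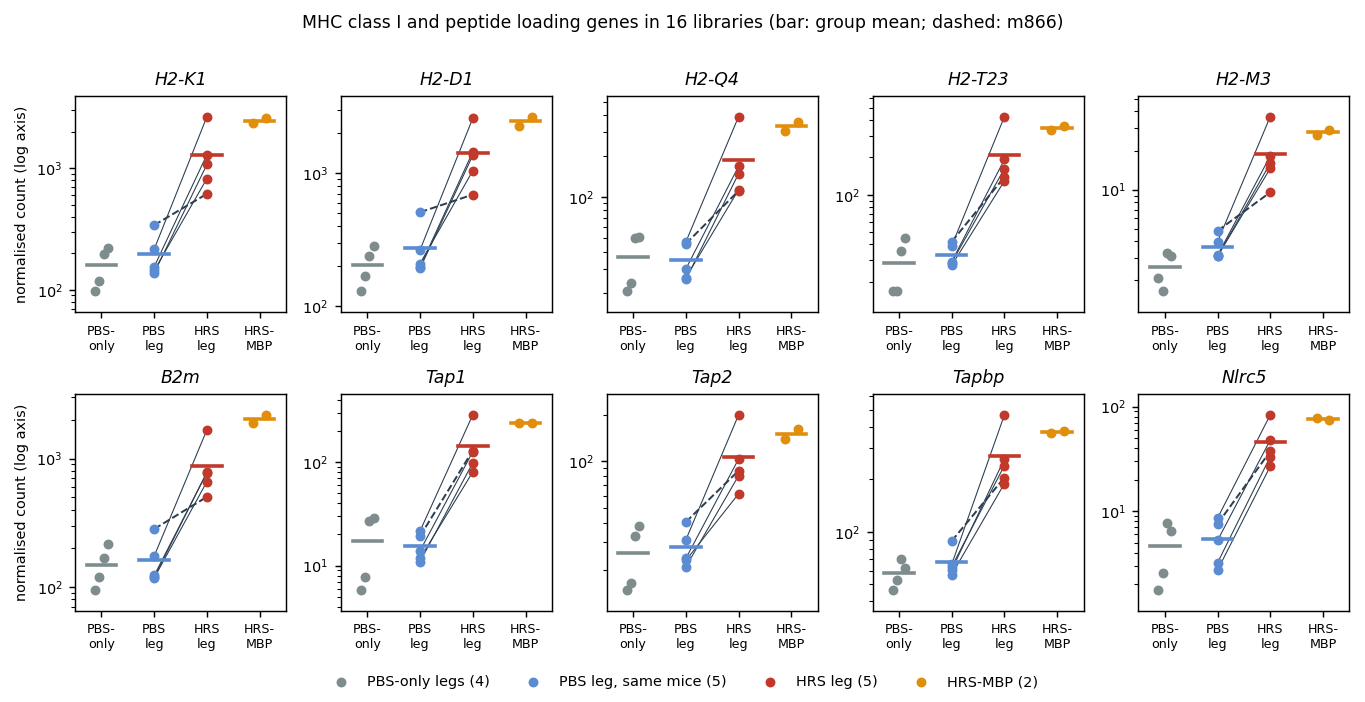
Normalized counts (log axis) of the 10 class I and peptide loading genes in 16 libraries, grouped as PBS-only legs, contralateral PBS legs, HRS legs and HRS-MBP. Each point is 1 library, thick bars are group means, and thin lines join the legs of 1 mouse, dashed for m866. In each panel the 7 HRS and HRS-MBP points lie above the 9 PBS points, an order found for 15.4% of tested genes.

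Counted over the whole list, 10 of 10 genes were called higher in HRS legs than in contralateral PBS legs by limma, at an adjusted p below 0.05 and a log2 fold change above 1, where 16.9% of the 16414 tested genes were. The median log2 fold change of the 10 genes was 2.37 (range 1.84 to 3.08), beside a median of 0.0769 over all tested genes. In all 5 mice, the HRS leg exceeded the PBS leg for each of the 10 genes, and an exact sign-flip test over 5 mice cannot reach 0.05. Without both legs of m866, 10 of 10 remained called, and the median was 2.75 (range 2.03 to 3.17).

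Against the PBS-only legs, 10 of 10 were called higher in the HRS legs (18.9% of all tested genes), with a median log2 fold change of 2.65 (range 2.03 for *Tap2* to 3.26 for *Nlrc5*). Without m868, 10 of 10 were called, and the largest were *Tap1* at 4.18 instead of 3.19 and *Nlrc5* at 4.01. With the 7 libraries of the HRS treatment label set against the 9 PBS libraries, 10 of 10 were called higher (18.6% of all tested genes), with a median of 2.8 (range 2.1 for *Tap2* to 3.38 for *Tap1*). These comparisons share the HRS legs. For each of the 10 genes all 7 libraries lay above all 9, an order found for 15.4% of the tested genes (two-sided p = 8.7e-05 by exact permutation, which 7 against 9 libraries cannot go below). That permutation takes the 16 libraries as independent, although they come from 9 mice. The p therefore restates the order and is not a test between animals.

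Between contralateral PBS legs and PBS-only legs, 0 of 10 genes were called by limma, and 0 of 10 had an unadjusted p below 0.05, where 0.00609% and 5.5% of all tested genes did. The log2 fold changes ran from -0.0014 for *H2-Q4* to 0.46 for *H2-M3*, with a median of 0.25, and their 95% confidence intervals reached 0.67 (*Tapbp*) to 1.18 (*Nlrc5*) at the upper end. The PBS-only group held 2 mice, and these differed. *Tap1* was at 5.86 and 7.69 in the legs of m867 and at 26.7 and 28.9 in those of m868. *Nlrc5* was at 1.78 and 2.59 against 7.69 and 6.43. Both legs of m868 lay above both legs of m867 for each of the 10 genes, by 1.32-fold (*Tapbp*) to 4.1-fold (*Tap1*), with a median of 2.1-fold, while 10.0% of tested genes had that order and the median ratio of all genes was 0.942. The legs of m868 were the shallowest libraries, their leukocyte marker sum was 40.7 and 44.3 against 17.9 and 36.1 in m867, and with 2 mice no test between them was possible. Without m868, the log2 fold changes of contralateral over PBS-only legs were 0.40 to 1.1, with 0 of 10 called.

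HRS-MBP mice gave the highest group means of the 10 genes. Against PBS-only legs 10 of 10 were called higher (20.7% of all tested genes), with a median log2 fold change of 3.69 (range 2.65 for *Tap2* to 4.1 for *Nlrc5*). Without m868 the range was 2.89 (*Tapbp*) to 5.06 (*Tap1*), with 10 of 10 called. *H2-K1* changed by 4.03 (95% confidence interval 2.99 to 5.08), *B2m* by 3.83 (2.91 to 4.76) and *Tap1* by 4.07 (2.86 to 5.29). Between HRS-MBP and HRS legs, 0 of 10 genes were called by limma (0.463% of all tested genes were), and 3 of 10 had an unadjusted p below 0.05, where 14.4% of tested genes did. The log2 differences were 0.53 (*Tapbp*) to 1.33 (*B2m*), and the interval for *B2m* was 0.44 to 2.23 (adjusted p = 0.182). In each of the 10 genes both HRS-MBP libraries lay above the HRS legs of m862, m863, m865 and m866, and in 9 of 10 the HRS leg of m864 reached or passed at least 1 of them. Without the HRS leg of m864, where 578 genes were called over the whole table instead of 76, 3 of 10 were called: *B2m* at 1.60 (adjusted p = 0.0165), *H2-K1* at 1.42 (adjusted p = 0.0437) and *H2-Q4* at 1.31 (adjusted p = 0.0455). The spread of the 2 HRS-MBP libraries was estimated together with the other groups. Protein and titled dose both differ between these groups and cannot be told apart.

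**Figure D3:**
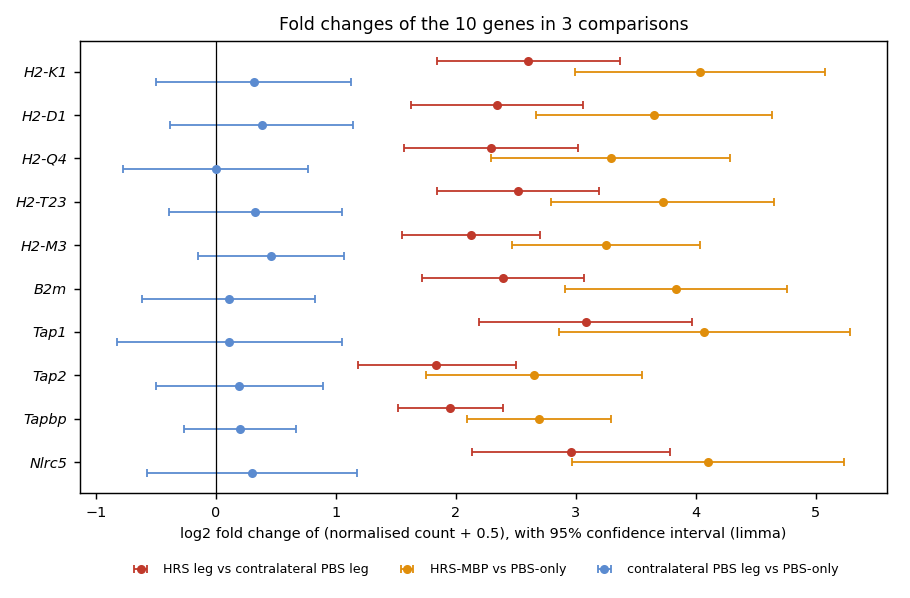
Log2 fold change of (normalized count + 0.5) for the 10 genes in 3 comparisons, with 95% confidence intervals from limma. The intervals of HRS legs over contralateral PBS legs and of HRS-MBP over PBS-only legs lie above 1 for each gene, and those of contralateral over PBS-only legs include 0 for each gene.

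The size of the difference within a mouse varied, and m866 had the smallest ratio of HRS leg to PBS leg for all 10 genes. For *H2-K1* the ratio was 1.81 in m866 and 5.71 to 12.3 in the other 4 mice. For *B2m* it was 1.78 against 5.64 to 9.64, and for *H2-D1* 1.36 against 4.98 to 9.75. *Tap1* was closest to the other mice, with 6.73 against 6.86 to 13.3. The ratio was 3.31 against 4.78 to 11 for *H2-T23*, 2.31 against 3.32 to 7.17 for *Tapbp* and 4.95 against 9.15 to 10.4 for *Nlrc5*. On the HRS side, m866 had the lowest leg of 5 for *H2-K1*, *H2-D1*, *H2-Q4*, *H2-M3* and *B2m*, but the second highest for *Tap1* and the third for *Tap2* and *Nlrc5*. On the PBS side, its leg was the highest of 5 for *H2-K1*, *H2-D1*, *H2-T23*, *H2-M3*, *B2m*, *Tap2* and *Tapbp*. In the same HRS leg, *Irf1* (162) was the second highest of 5, and *Ptprc* (58.0 against 109 to 279) and *Col1a1* (506 against 4569 to 8779) were the lowest. The part of cell composition in this pattern was not tested.

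**Figure D4:**
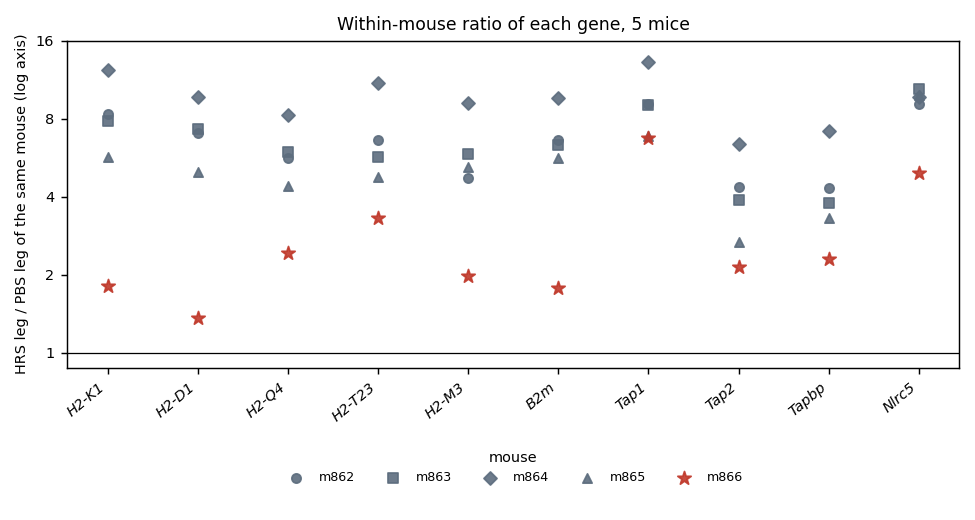
Ratio of the normalized count in the HRS leg to that in the PBS leg of the same mouse (log axis) for 10 genes in 5 mice. The ratio was above 1 for each gene and mouse, and m866 (stars) was the lowest for each gene, at 1.36 for *H2-D1* and 6.73 for *Tap1*.

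Ratios between genes within a library do not depend on its scaling. The ratio of *Tap1* to *Tap2* counts was 1.22 to 1.49 in the 5 HRS legs and 1.49 and 1.71 in the HRS-MBP libraries, but 0.474 to 0.694 and 0.395 to 0.818 in the contralateral and PBS-only legs. It was higher in each HRS library than in any PBS library. *Tap1* to *H2-K1* overlapped, at 0.0916 to 0.107 in 4 HRS legs, 0.21 in that of m866, and 0.0564 to 0.135 over the PBS libraries. *B2m* to *H2-K1* was 0.604 to 0.814 in the HRS legs, 0.801 and 0.845 with HRS-MBP, 0.762 to 0.889 contralaterally and 0.848 to 1 in PBS-only legs. The contralateral range overlapped with those of HRS and HRS-MBP, and the PBS-only range lay just above them. *H2-D1* to *H2-K1* ran from 0.969 to 1.34 with HRS and from 1.21 to 1.49 with PBS, which overlap.

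**Figure D5:**
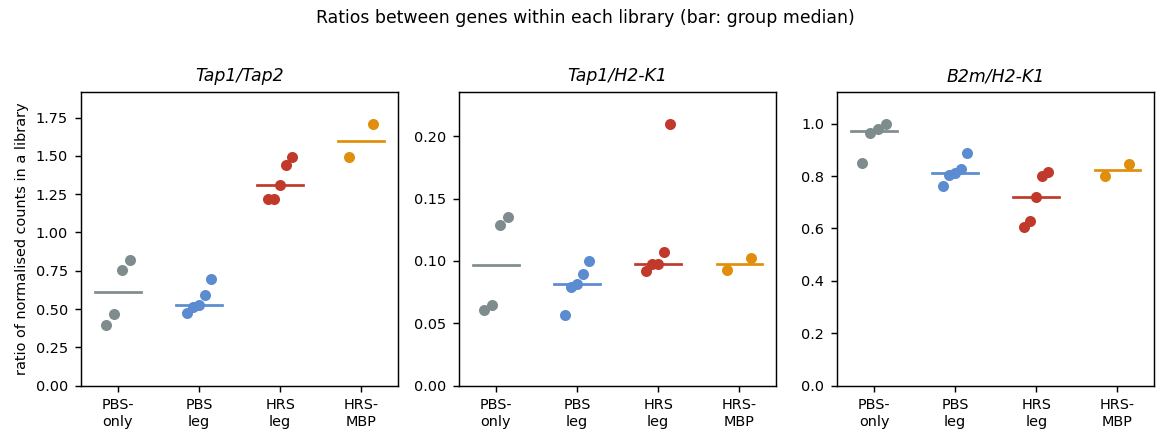
Ratios of normalized counts between genes within each library, by group, with group medians as bars and an axis from 0. *Tap1* to *Tap2* separates the 7 HRS and HRS-MBP libraries (1.22 to 1.71) from the 9 PBS libraries (0.395 to 0.818), while for *Tap1* to *H2-K1* and *B2m* to *H2-K1* the 7 and the 9 libraries overlap.

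Levels of different genes were compared per kilobase of exon. In the HRS legs *B2m* was highest, with a mean of 1020 normalized counts per kilobase, followed by *H2-D1* (554) and *H2-K1* (442). The next genes were *Tapbp* (75.1), *H2-T23* (72.7) and *H2-Q4* (71.9), whose ranges overlapped and whose order changed between libraries. *Tap2* (28.1) and *Tap1* (26.4) came after them, then *H2-M3* (13.2) and *Nlrc5* (5.4). Per kilobase *Tap1* was above *Tap2* in both HRS-MBP libraries (means 43.8 and 39.8) and below it in each PBS library. In the contralateral PBS legs the order began with the same genes, *B2m* (190), *H2-D1* (107) and *H2-K1* (67.8), and ended with *H2-M3* (2.51) and *Nlrc5* (0.644). *B2m* stood above *H2-D1*, and *H2-D1* above *H2-K1*, within each of these 10 libraries, although the ranges of the neighbors overlapped. *H2-K1* was above *Tapbp* without overlap in each of the 4 groups.

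The 10 genes varied together. Over the 16 libraries the 45 pairs of genes had Pearson correlations of 0.96 to 0.997 on the log2 scale (median 0.985), which includes the difference between groups. Within the 9 PBS libraries, which share low levels and include both legs of m867 and m868, they were 0.704 (*H2-Q4* with *H2-M3*) to 0.977 (*H2-K1* with *H2-D1*), with a median of 0.871. Outside the lists, the genes closest to the mean of the 10 over 16 libraries were *Cfb*, a complement component (r = 0.993), the inflammasome sensor *Nlrp3* (0.992), *Rinl* (0.991), *Parp9* (0.99) and *Sp110* (0.99). Within the 9 PBS libraries they were *9330175E14Rik* (0.961), *Rinl* (0.946), *Samd9l* (0.942), *Parp9* (0.942) and *Hk3* (0.932). These correlations are descriptions, over libraries that are not all independent.

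Other genes of the route were taken from written lists and compared between HRS and contralateral PBS legs, where 16.9% of all tested genes were called higher. Of 14 further heavy chains in the table, 8 passed the filter on low values. One of them, *H2-M2*, passed only through its level with HRS and is not counted. Of the other 7, 6 were called higher, the largest change being that of *H2-Q7* (limma log2 fold change 2.87, at 92.7 to 419 against 14.0 to 38.8). *H2-Q10*, which is secreted mainly by the liver, was not called, at 0.40 (limma adjusted p = 0.508). Its contralateral levels had a median of 1.89 and a highest value of 22.7, in m866, against 3.6 to 7.89 in the HRS legs, and without m866 it was called at 1.13 (limma adjusted p = 0.000508). *H2-Q7* and *H2-Q6* (2.74) are close copies, between which reads may have been divided. Among 4 tested class I-like molecules, which present lipids or metabolites or carry other cargo, 0 were called in either direction (median 0.0634), and *Mr1* was at -0.68 (adjusted p = 0.00132 from limma, under the fold threshold). The rise was therefore not seen in every gene with a class I fold.

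Peptide supply was examined next. Of 10 tested genes, 5 were called higher (16.9% over all genes) and 0 lower (median 0.79), and the 5 were the interferon-inducible proteasome subunits *Psmb9* (log2 fold change 2.94), *Psmb8* (2.8) and *Psmb10* (2.31) and the activator subunits *Psme2* (1.63) and *Psme1* (1.32). *Psmb9*, the neighbor of *Tap1*, lay at 30.1 to 121 in the HRS legs against 3.82 to 9.46. The cytosolic peptidases did not pass, with *Thop1* at -0.35 and *Tpp2* at -0.19. In the endoplasmic reticulum, 2 of 9 tested loading and quality control genes were called higher (median 0.71), a share near the 16.9% of all genes. These were *Tapbpl* (2.35), a relative of tapasin, and *Pdia3* (1.65), a disulfide isomerase of the loading complex. *Erap1*, the trimming peptidase, was at 0.92 (adjusted p = 0.000148), just under the fold threshold, and passed it over all HRS and PBS libraries at 1.08. *Calr* was at 0.83, and was called at 1.02 without m866, and *Canx* was at 0.71.

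Of 15 tested regulators, 7 were called higher (16.9% over all genes) and 0 lower (median 0.82). *Ciita*, the class II counterpart of *Nlrc5*, had the largest log2 fold change, 3.67 ± 0.395 (SE; limma adjusted p = 5.92e-06), at 18 to 87.2 in the HRS legs against 1.19 to 3.6. Those called also included *Irf1* (2.91), *Stat2* (1.87) and *Irf9* (1.57), which carry interferon signals, and *Nfya* (1.18) and *Rfx5* (1.15), parts of the complexes that bind the Y and X boxes. Their partners were not called, and *Rfxap* was at -0.58 (adjusted p = 0.00229) and *Nfyb* at -0.55 (adjusted p = 0.00698), under the fold threshold. *Ifng* was at 0.349 to 5.3 in the HRS legs and was listed at 0 in each of the 5 contralateral PBS legs, where 3 reads would have been worth 0.0494 to 0.139. *Ifng* passed the filter only through its level with HRS. Of the other 5 interferon-γ signaling genes, *Socs1* (2.76), an inhibitor that interferon induces, and *Ifngr1* (1.02) were called higher. *Ifngr2* was at -0.48 and *Jak1* at -0.01. Among listed receptors of class I or class I-like molecules, *Pirb* (3.72), a myeloid inhibitory receptor, and *Klrk1* (3.23), an activating receptor of NK cells, were called higher. The 4 others, *Cd8a*, *Cd8b1*, *Klrd1* and *Klrc1*, had a PBS mean under the filter and were tested only through their level with HRS, so that their calls are not counted.

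Leukocyte and macrophage markers rose in the same legs. Between HRS and contralateral PBS legs, 4 of 4 leukocyte markers were called higher by limma (16.9% of all tested genes were; median log2 fold change 3.51), with a summed level of 217 to 965 against 21.8 to 52.8 and no marker at 0 in every library. Macrophage markers were called in 5 of 5 (median 3.58, sum 276 to 1110 against 30.8 to 84.9). The summed T cell markers were at 9.82 to 76.6 against 1.06 to 2.54, the B cell markers at 1.88 to 15.5 against 0.441 to 1.02, the NK cell markers at 9.35 to 33.3 against 0.32 to 1.88 and the dendritic cell markers at 17.9 to 33.9 against 7.65 to 11. No calls are counted for these, since 2 of 4, 3 of 3, 3 of 3 and 1 of 4 passed the filter only through their level with HRS. Fibroblast markers were called in 1 of 3 (median 0.83), *Col1a1* at 3.4, with a summed level of 935 to 9440 against 499 to 971, the 935 being the HRS leg of m866. Endothelial markers were called in 0 of 3 (median 0.039), and 2 of 6 muscle fiber markers, *Ckm* (-1.18) and *Tnnt3* (-1.1), were called lower (6.27% of all tested genes were). Without m866, 5 of 6 muscle fiber markers were called lower and 2 of 3 fibroblast markers higher. The class I genes thus rose in legs with more leukocyte RNA. The ratio of *H2-K1* counts to those of *Ptprc*, the leukocyte gene of CD45, ran from 7.16 to 12 with HRS (7 libraries) and from 14.8 to 42.9 with PBS (9 libraries), and *Ptprc* had a log2 fold change of 3.93 between legs. The ratio of *Tap1* to *Ptprc* overlapped, at 0.698 to 2.23 with HRS and 1.03 to 3.84 with PBS. The part of these cell types in the rise of the 10 genes was not tested.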

How the data were processed

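Poly(A)-selected RNA of mouse muscle was sequenced with a strand-specific kit on 3 Illumina instruments, and which library was run on which is not given in the sources used here. Per gene, the authors deposited normalized counts on a linear scale, handled as a signal with a true zero. The submitters' processing notes name STAR 2.7.8a, limma and the builds mm39 and GRCm39. The positions in the table nevertheless matched GENCODE M21 (GRCm38) for 99.0% of 25652 genes matched by symbol and chromosome, so GRCm38 is given. The authors' counter and scaling are not given in the sources used here. Between 75.4% and 77.7% of low values (up to 20 steps, tolerance 0.02) were whole multiples of a step, taken as the worth of 1 read. This gave the implied depth and a floor of 3 reads. Because not nearly all values were whole, no count model was used. Fewer reads make a value less precise, most of all in the legs of m868.

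limma 3.58.1 (R 4.3.3, lmFit, eBayes with a mean trend) was run on log2(value + 0.5) where the mean over libraries reached 0.5. All HRS against all PBS libraries were fitted as 2 groups, and the other 5 comparisons came from 1 fit of 4 groups. Neither fit held a term for mouse. p-values were adjusted (Benjamini-Hochberg) over 16414 genes, and a call needed 0.05 and a log2 fold change beyond 1 in size. The 10 genes were also tested singly by exact permutation and exact sign flips. Alternatives covered the pseudocount, filter, scaling, variance model, block, groups in the fit and left-out libraries. Leaving out both legs of m866 or of m868 was added after seeing the data, for the lists m866 only. On simulated data the fits were tested with changed genes of known size. The legs of a mouse pair by the mouse label, and their deviations from the group means correlated at 0.12, 0.16, 0.097, -0.026 and -0.37 in m862 to m866. The genes and lists were chosen with earlier results of these data known. From each list, the gene with the largest rise and the largest fall past the threshold was named, beside *Ifng*, *Irf1*, *Rfx5*, *Ciita*, *Psmb8*, *Psmb9*, *Psmb10* and *Erap1*. Other list genes, and the ratios between genes, were chosen after their values were seen. One item of these lists is not reported here.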

Additional observations from a re-analysis of the deposited data

Results flagged for a closer look

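Ratios and levels were looked at in 60 groups of 4 or 5 libraries for a library far from the rest, and 4 stood out. This is not far from the 1 in 20 groups that chance gives. All 4 involved mouse m866, and all 4 were ratios to *H2-K1*, most of them in 1 library, so they are not independent. In its HRS leg, *Tap1* to *H2-K1* was 0.21 against 0.0916 to 0.107 in the other 4 HRS legs, *Nlrc5* to *H2-K1* was 0.0606 against 0.0308 to 0.037, and *H2-T23* to *H2-K1* was 0.225 against 0.148 to 0.16. In its contralateral PBS leg, *H2-T23* to *H2-K1* was 0.123 against 0.18 to 0.207. The summed leukocyte markers of that HRS leg were 217 against 437 to 965, and those of that PBS leg, at 52.8, were the highest of the 5. Their part in these ratios was not tested.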

How the results depend on the processing

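The count of called genes among the 10 was the same in each of 29 alternatives for HRS against all PBS, 24 for HRS legs against contralateral PBS legs, 24 against PBS-only legs, 24 for contralateral against PBS-only legs and 20 for HRS-MBP against PBS-only legs. For HRS-MBP against HRS legs it was 0 in 19 of 20, and leaving out a library gave 0 to 3, the 3 without the HRS leg of m864. With mouse as a replicate block, 10 of 10 remained called between legs, at adjusted p of 0.000516 (*Tap1*, *Nlrc5*) to 0.00941 (*H2-D1*) from limma, and the block changed no call.

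Directions turned only between contralateral PBS and PBS-only legs, where no gene was called. Leaving out 1 library gave log2 fold changes of -0.23 to 0.20 for *H2-Q4*, -0.28 to 0.46 for *Tap1*, -0.12 to 0.30 for *B2m*, -0.018 to 0.43 for *Tap2* and -0.023 to 0.59 for *Nlrc5*. Without m868 *H2-Q4* was at 0.59, and without m866 *B2m* was at -0.12. The cause was not tested.

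Rescaling moved the center of all genes. The median of all genes for HRS against all PBS was 0.0989 as deposited, -0.18 with quantile normalization, 0.48 with equal totals and 0.021 with median-of-ratios factors, and 72.6%, 54.3%, 91.8% and 66.8% of called genes were higher. The 10 genes kept their direction and call under each. Over all genes, calls between contralateral and PBS-only legs were 0 to 3 (1 as reported), and between HRS-MBP and HRS legs 4 to 578 (76 as reported). Depth limits *H2-M3* most, at the worth of 26 reads in its shallowest library.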
